A study of Mus musculus with 6 samples.

Results

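Interferons, the cytokines of antiviral and anti-intracellular defence, switch on a set of large GTPases that attack the membranes around intracellular parasites and bacteria. In mice these fall into the guanylate-binding proteins (Gbp) and the immunity-related GTPases (IRG), and both families are standard readouts of interferon gamma signalling through the kinases Jak1 and Jak2 and the transcription factor Irf1. Among the IRG proteins, Irgm1, Irgm2 and Igtp (Irgm3) act as regulators that hold back the effectors Iigp1 (Irga6), Ifi47 (Irgd) and Tgtp1 (Irgb6).

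The genes followed here are 9 such GTPases, and they were chosen by symbol: every probe set whose only annotated gene was Gbp2, Gbp3, Gbp6, Iigp1, Igtp, Irgm1, Irgm2, Ifi47 or Tgtp1. That gave 11 probe sets for 8 genes, of 45037 probe sets on the array that are not controls. Gbp2, Gbp6 and Iigp1 had 2 probe sets each. Tgtp1 had 1 probe set, which was also annotated to another gene, so it was left out. All 11 probe sets lay between the 70.0th and the 93.5th percentile of mean level and all 11 passed the filter on dim probe sets.

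RNA of heart tissue was measured on Affymetrix arrays, 1 signal per probe set and array, with 2 arrays in each of 3 groups. In the first group, apoE-deficient mice on the B6 background received rosiglitazone (30 mg/kg daily, begun at 6 months of age and kept up for 2 months), and the labels call their hearts failing. The others were untreated apoE-deficient mice of the same background and untreated wild-type B6 mice. ApoE carries cholesterol in lipoproteins, and rosiglitazone, given for diabetes, is a PPAR gamma agonist. Every group was 8 months old at isolation and shared a diet of 7% fat and 0.15% cholesterol. Drug and failing state go together in the labels and cannot be told apart. Whether the 2 arrays of each group stand for different animals is not stated in the labels, so a p-value here covers array-to-array spread alone, which may be technical.

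The Apoe signal went with the labels: its log2 level was 6.20 and 6.25 in treated hearts and 5.24 and 6.29 in untreated apoE-deficient hearts, against 11.91 and 11.86 in B6 hearts. Cardiomyocyte markers were bright everywhere, and their summed normalized signal ran from 134600 to 140300 on the treated, from 139400 to 141700 on the untreated apoE-deficient, and was 147700 on both B6 arrays. Single markers differed between treated and untreated apoE-deficient hearts, where 3 of 11 were called higher, such as Ttn (0.49 ± 0.04), and 6 lower, such as Gata4 (-0.44 ± 0.06). The deposited signals were not on 1 scale: 2%-trimmed means were 342 and 265 in treated hearts, 126 and 131 in untreated apoE-deficient hearts and 176 and 150 in B6 hearts, so brightness differed with group. All levels below are log2(quantile-normalized signal + 11.1), and differences are on that scale, which understates the change of dim probe sets. Differences are given ± SE with n = 2 arrays per group, with adjusted p-values from limma after Benjamini-Hochberg adjustment over 27022 tested probe sets, and a probe set passed at an adjusted p under 0.05. With 2 arrays a group, the small number of arrays sets the precision. In whole tissue, fewer cells of a type and less RNA per cell cannot be told apart.

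The promoters are shown first because interferon response elements near the start site are the known route to these genes. Windows from RefSeq's promoter table (build GRCm38.p6, 250 bases before to 50 after the start) were used for 6 of the 8 genes. Gbp6 and Iigp1 are named only. No window of theirs was searched, which does not show that the table lacks one. Each window was searched on both strands for GAAA, any 2 bases and GAAA again, the core of the interferon-stimulated response element, and for TTCNNNGAA, the gamma-activated site. Matches are in capitals in the 5 windows that hold one.
Gbp2, chr3:142620413-142620712, plus strand: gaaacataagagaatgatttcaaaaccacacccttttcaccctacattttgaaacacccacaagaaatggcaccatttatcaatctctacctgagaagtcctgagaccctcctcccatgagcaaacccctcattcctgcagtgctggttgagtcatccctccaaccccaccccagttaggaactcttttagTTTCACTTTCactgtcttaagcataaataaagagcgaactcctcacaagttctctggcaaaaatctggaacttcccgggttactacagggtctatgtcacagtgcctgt
Gbp3, chr3:142559794-142560093, plus strand: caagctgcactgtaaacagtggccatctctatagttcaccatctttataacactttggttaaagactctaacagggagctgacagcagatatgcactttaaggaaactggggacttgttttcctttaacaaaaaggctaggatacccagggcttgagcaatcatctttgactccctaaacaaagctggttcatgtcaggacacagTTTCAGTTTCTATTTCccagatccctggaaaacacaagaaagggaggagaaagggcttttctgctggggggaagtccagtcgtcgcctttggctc
Irgm1, chr11:48871371-48871670, minus strand: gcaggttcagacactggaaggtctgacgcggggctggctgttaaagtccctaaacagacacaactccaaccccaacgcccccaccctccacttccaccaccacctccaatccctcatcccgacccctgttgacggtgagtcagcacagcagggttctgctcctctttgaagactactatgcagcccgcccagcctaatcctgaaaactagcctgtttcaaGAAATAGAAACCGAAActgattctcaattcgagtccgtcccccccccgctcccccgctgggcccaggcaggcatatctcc
Igtp, chr11:58199306-58199605, plus strand: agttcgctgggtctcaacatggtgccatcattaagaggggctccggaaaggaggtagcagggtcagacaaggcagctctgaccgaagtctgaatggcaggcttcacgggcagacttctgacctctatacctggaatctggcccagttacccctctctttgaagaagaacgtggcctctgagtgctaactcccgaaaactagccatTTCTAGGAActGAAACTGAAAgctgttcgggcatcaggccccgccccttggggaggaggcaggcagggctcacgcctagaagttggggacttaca
Irgm2, chr11:58214727-58215026, plus strand: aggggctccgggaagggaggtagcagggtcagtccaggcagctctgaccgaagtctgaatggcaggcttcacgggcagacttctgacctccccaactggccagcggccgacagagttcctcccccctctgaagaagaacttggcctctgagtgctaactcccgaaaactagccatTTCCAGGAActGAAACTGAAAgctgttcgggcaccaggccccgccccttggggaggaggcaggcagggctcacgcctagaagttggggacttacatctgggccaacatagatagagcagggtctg

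The response element match began 59 bases before the start site in Gbp2 and 34 and 64 bases before it in Igtp and Irgm2. Gbp3 and Irgm1 each had 2 overlapping matches, beginning 45 and 39 bases before the start in Gbp3 and 30 and 24 bases before it in Irgm1. In Gbp2 and Gbp3 the match reads on the opposite strand. Igtp and Irgm2 alone among these 6 genes also held TTCNNNGAA, as TTCTAGGAA and TTCCAGGAA, just upstream of the first motif. Their windows were near copies, with 247 of 264 aligned bases identical (93.6%). The windows of Ifi47 and the second start of Gbp3 held neither motif. Of the 32851 promoter windows searched as background, 3.44% held the response element core, 8.30% held TTCNNNGAA and 0.454% held both. A match is a string of letters in this window and says nothing of binding.

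The first comparison set rosiglitazone-treated against untreated apoE-deficient hearts. Of the 11 GTPase probe sets, 6 rose in the treated hearts, 0 fell and 5 did not pass, while 10.0% of all tested probe sets were called higher, 9.81% lower and 19.8% in either direction. The 6 were both probe sets of Gbp2, the Gbp3 probe set, 1 of 2 for Gbp6, and those of Irgm1 and Ifi47. At an unadjusted p under 0.05 (limma), 7 of the 11 passed, all as higher. The share of all tested probe sets at that threshold was not computed, so this count has no background beside it. The median difference of the 11 was 0.42, against -0.02 for all tested probe sets. In 9 of the 11 the treated arrays lay above both untreated arrays, as did 28.6% of all tested probe sets, and in 0 they lay below both, against 31.4%.

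Gbp2, a guanylate-binding protein that gathers on pathogen vacuoles and bacterial membranes, had the probe set with the largest difference among the 11. That brighter Gbp2 probe set (1435906_x_at) read 9.71 and 9.48 in treated hearts, against 8.76 and 8.61 in untreated apoE-deficient hearts. The treated arrays lay well above the untreated ones, and the difference was 0.91 ± 0.10 (adjusted p = 3.28e-04), or 1.88-fold. The suffix of that probe set marks probes that can also bind other transcripts, which matters in a family of close paralogs. The second Gbp2 probe set (1418240_at), without that suffix, read 9.35 and 9.43 in treated hearts and 8.91 and 8.96 in untreated ones, a rise of 0.45 ± 0.08 (adjusted p = 0.00403). Both passed, and the second lay below Gbp3, Ifi47 and Irgm1 in size.

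Gbp6, a member of a cluster of very similar genes on chromosome 5, read 9.47 and 9.43 in treated hearts with its brighter probe set (1447927_at), against 9.10 and 8.96 in untreated apoE-deficient hearts. Treated and untreated arrays did not overlap, and the rise was 0.42 ± 0.08 (adjusted p = 0.00775). The dimmer Gbp6 probe set (1438676_at) differed by 0.34 ± 0.18 and did not pass (adjusted p = 0.214). Gbp3 read 7.56 and 7.68 in treated hearts, against 6.81 and 7.07 on the untreated arrays, a rise of 0.68 ± 0.21 that passed narrowly (adjusted p = 0.0495). The Gbp3 call was lost under 8 of 18 other settings, and its value ran from 0.55 to 1.05 in the settings that scale the arrays.

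Among the IRG genes, Irgm1, a regulator that guards the cell's own membranes, read 8.27 and 8.17 in treated hearts and 7.83 and 7.58 in untreated apoE-deficient hearts, and rose by 0.51 ± 0.14 (adjusted p = 0.0274). Ifi47, an effector GTPase, read 8.16 and 8.18 in treated hearts, against 7.67 and 7.60 in untreated ones, and rose by 0.53 ± 0.15 (adjusted p = 0.0383). For both genes the treated arrays stood clear of the untreated ones. Irgm2, a regulator found at the Golgi apparatus, differed by 0.29 ± 0.13 (adjusted p = 0.154), with 8.04 and 7.93 on the treated and 7.66 and 7.73 on the untreated arrays.

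Igtp and Iigp1 showed the smallest differences. Igtp, a regulator of the endoplasmic reticulum and lipid droplets, read 8.84 and 8.76 in treated hearts and 8.73 and 8.70 in untreated apoE-deficient hearts, a difference of 0.09 ± 0.08 (adjusted p = 0.521). Iigp1, an effector that coats parasite vacuoles, read 9.90 and 10.02 in treated hearts and 10.02 and 9.95 in untreated ones with its brighter probe set (1419043_a_at), and the arrays of the 2 groups overlapped (-0.03 ± 0.06, adjusted p = 0.831). The other Iigp1 probe set (1419042_at) gave 0.13 ± 0.15 (adjusted p = 0.593). Neither Igtp nor Iigp1 is shown to be unchanged by these tests.

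**Figure D1:**
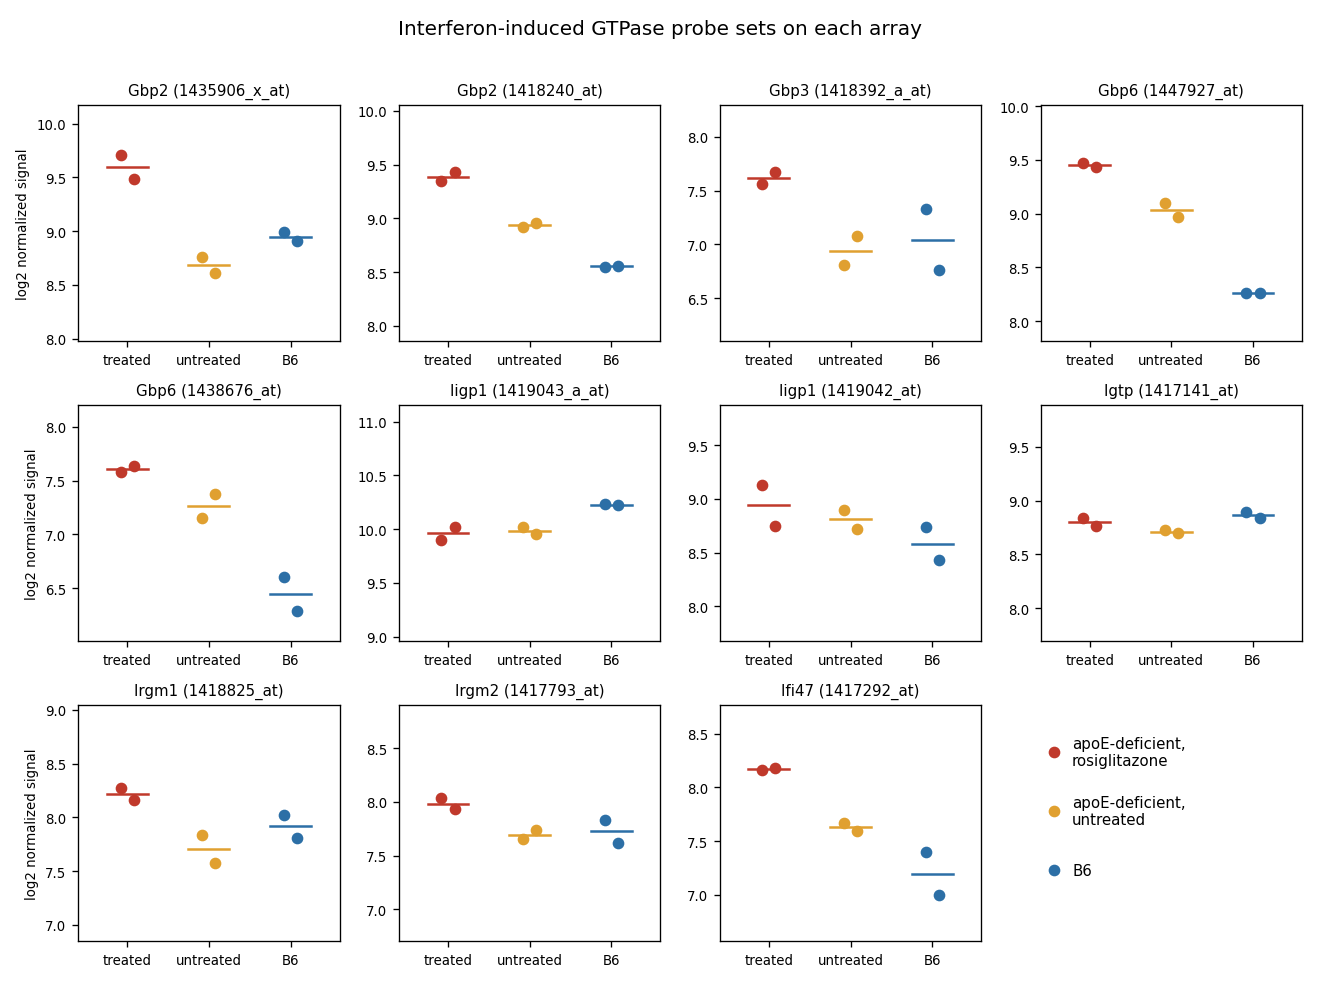
Levels of the 11 GTPase probe sets, as log2 normalized signal on the y axis (each panel spans the same range of log2 units), for treated apoE-deficient, untreated apoE-deficient and B6 hearts; dots are arrays and bars group means. Both Gbp6 probe sets, the second Gbp2 probe set and Ifi47 step down over the 3 groups, while Igtp stays between 8.70 and 8.89 on all 6 arrays.

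How the calls depend on single arrays and on scaling bears on all of these values. With any 1 of the 4 compared arrays left out, fewer of the 11 probe sets were called, as were fewer of all tested probe sets. The median difference of the 11 was then 0.40 without treated replicate 1 and 0.41 without treated replicate 2. It was 0.43 without untreated apoE-deficient replicate 1 and 0.38 without untreated apoE-deficient replicate 2. Irgm1 lost its call without treated replicate 1, treated replicate 2 or untreated apoE-deficient replicate 2 (adjusted p = 0.171, 0.0820 and 0.117), the brighter Gbp6 probe set without treated replicate 1 (0.0633) and Ifi47 without any 1 of the 4 arrays, while the brighter Gbp2 probe set kept it in all 18 other settings, with values from 0.79 to 1.28 where arrays were scaled. Called probe sets split 50.5% higher here, against 88.0% with array medians centred, 79.6% with scaling to hybridization controls and 99.9% with no scaling, which moved the median of all tested probe sets to 0.23, 0.18 and 1.13. Set against that median, 10 or 11 of the 11 GTPase probe sets lay above it under each of 6 scalings, the brighter Iigp1 probe set being the one below it in 4 of them. All 11 passed as higher with array medians centred and with no scaling, where 25.8% and 84.1% of all tested probe sets were called higher.

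**Figure D2:**
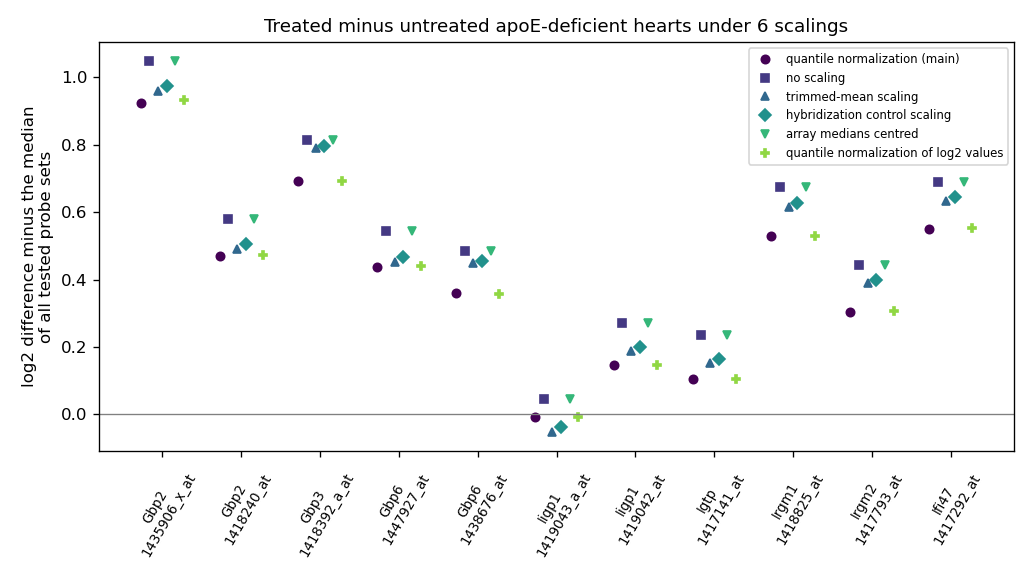
Treated minus untreated apoE-deficient difference of each GTPase probe set (y axis, log2), less the median of all tested probe sets, under 6 scalings of the arrays. The brighter Gbp2 probe set lies between 0.92 and 1.05 and the brighter Iigp1 probe set between -0.05 and 0.05; no scaling and centred medians coincide because they differ by 1 constant per array.

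The second comparison set untreated apoE-deficient against B6 hearts. Both Gbp6 probe sets and 1 Gbp2 probe set were higher in the apoE-deficient hearts, 0 of the 11 were lower and 8 did not pass, while 3.17% of all tested probe sets were called higher, 3.90% lower and 7.06% in either direction. At an unadjusted p under 0.05 (limma), 6 of the 11 passed, among them the brighter Gbp2 and the brighter Iigp1 probe set as lower. For this count too, the share of all tested probe sets was not computed. The median of the 11 was -0.03, against -0.01 for all tested probe sets. Arrays did not overlap in 4 probe sets that were higher and 3 that were lower, as in 24.3% and 25.9% of all tested probe sets.

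Gbp6 read 9.10 and 8.96 in untreated apoE-deficient hearts, against 8.26 and 8.26 in B6 hearts, with the brighter probe set. The difference was 0.77 ± 0.08 (adjusted p = 0.00141), or 1.71-fold. The dimmer Gbp6 probe set read 7.15 and 7.38 in untreated apoE-deficient hearts, against 6.60 and 6.29 in B6 hearts, a difference of 0.82 ± 0.18 (adjusted p = 0.0268). Of these, the brighter kept its call in 16 of 18 other settings and the dimmer in 9.

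The Gbp2 probe sets disagreed in this comparison. The second one read 8.91 and 8.96 in untreated apoE-deficient hearts, against 8.55 and 8.56 in B6 hearts, and was higher by 0.38 ± 0.08 (adjusted p = 0.0241). The brighter one, whose probes can bind other transcripts, gave -0.26 ± 0.10 (adjusted p = 0.163), with 8.76 and 8.61 in untreated apoE-deficient hearts, below 8.99 and 8.91 in B6 hearts. A direction for Gbp2 in this comparison is therefore uncertain, and the call of the second probe set was lost without any 1 of the 4 arrays compared.

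Ifi47 differed by 0.44 ± 0.15 and did not pass (adjusted p = 0.130), with 7.67 and 7.60 in untreated apoE-deficient hearts, above 7.40 and 7.00 in B6 hearts. The regulators Irgm1 (-0.21 ± 0.14), Irgm2 (-0.03 ± 0.13) and Igtp (-0.15 ± 0.08) and Gbp3 (-0.10 ± 0.21) did not pass either. The brighter Iigp1 probe set gave -0.24 ± 0.06 (adjusted p = 0.0574) and the other 0.23 ± 0.15, so the Iigp1 probe sets differed in sign. Gbp6 was the member gene whose probe sets both passed here.

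The third comparison set treated apoE-deficient against B6 hearts, and it shares its arrays with the comparisons above. Of the 11 probe sets, 5 were higher in the treated hearts, 1 was lower and 5 did not pass, while 7.46% of all tested probe sets were called higher, 7.58% lower and 15.0% in either direction. The treated arrays lay above both B6 arrays in 9 probe sets and below them in 2, as in 26.4% and 31.1% of all tested probe sets. Gbp6 differed most, by 1.19 ± 0.08 (adjusted p = 3.14e-05), or 2.29-fold, with its brighter probe set and by 1.16 ± 0.18 (adjusted p = 0.00229) with the other. Ifi47 was higher by 0.97 ± 0.15 (adjusted p = 0.00289). Gbp2 was higher by 0.65 ± 0.10 and 0.83 ± 0.08 with its probe sets (adjusted p = 0.00251 and 1.89e-04).

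The brighter Iigp1 probe set was called lower, at 9.90 and 10.02 in treated hearts against 10.23 and 10.22 in B6 hearts (-0.27 ± 0.06, adjusted p = 0.0226), and this direction turned to 0.03 with scaling to hybridization controls and to 0.60 with no scaling. The call was also lost without treated replicate 1 (adjusted p = 0.143), B6 replicate 1 (0.100) or B6 replicate 2 (0.0994). The other Iigp1 probe set gave 0.36 ± 0.15 (adjusted p = 0.151), with 9.13 and 8.75 in treated hearts, just above 8.74 and 8.43 in B6 hearts. Gbp3 (0.58 ± 0.21), Irgm1 (0.30 ± 0.14), Irgm2 (0.26 ± 0.13) and Igtp (-0.06 ± 0.08) did not pass.

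**Figure D3:**
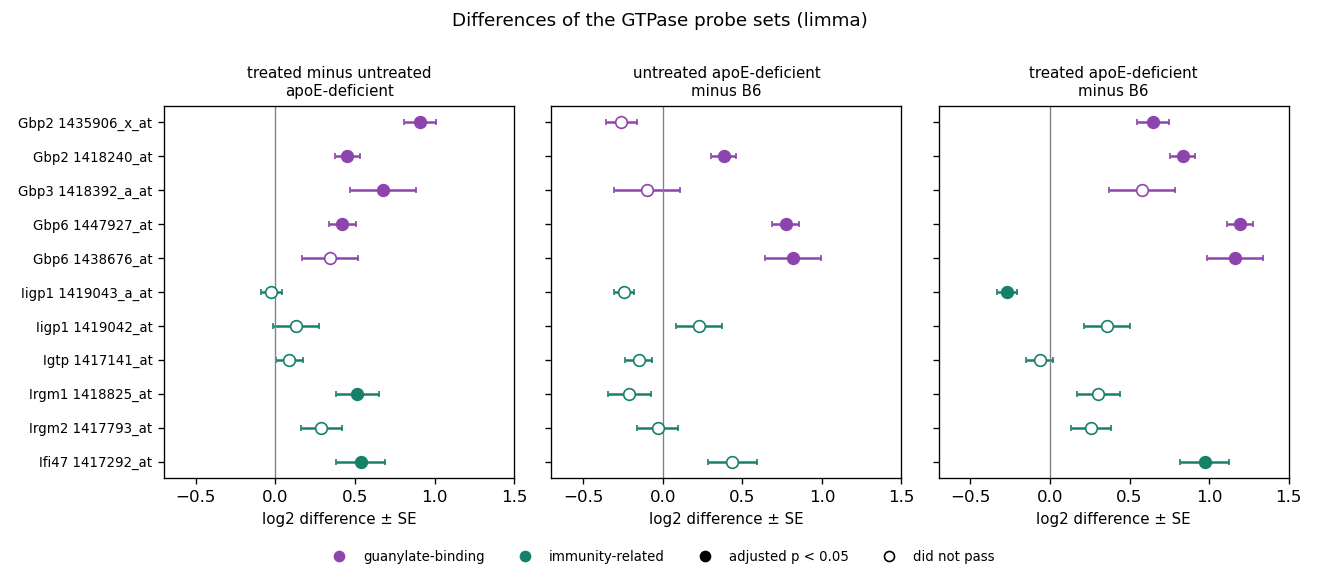
Log2 differences ± SE (x axis) of the 11 GTPase probe sets in the 3 comparisons; filled points passed at an adjusted p under 0.05. Gbp6 lies at 1.19 and 1.16 in treated against B6 hearts, while Igtp lies between -0.15 and 0.09 in all 3.

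The balance between the families can be read within an array, where a factor that scales a whole array drops out. The mean log2 deposited signal of the 5 Gbp probe sets minus that of the 6 IRG probe sets was -9.79e-05 and 0.10 in treated hearts, -0.35 and -0.20 in untreated apoE-deficient hearts, and -0.61 and -0.61 in B6 hearts. The 3 groups did not overlap, and the step was 0.32 between treated and untreated apoE-deficient hearts and 0.34 between untreated apoE-deficient and B6 hearts. Without Gbp6 the first step was 0.44 and the second -0.01, so the second rested on Gbp6. Without Ifi47 the steps were 0.39 and 0.43. This ratio was chosen after the values were seen, carries no test and does not say which genes changed.

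**Figure D4:**
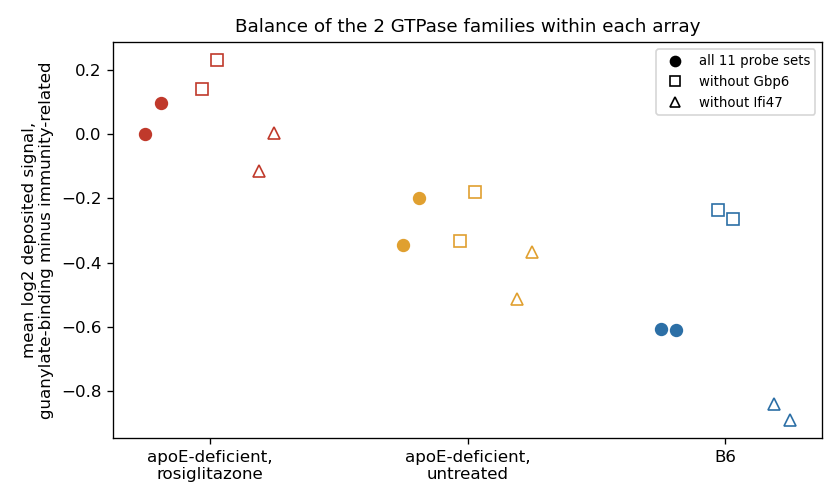
Mean log2 deposited signal of Gbp probe sets minus that of IRG probe sets on each array (y axis), for treated apoE-deficient, untreated apoE-deficient and B6 hearts. Filled circles use all 11 probe sets and run from about 0.10 down to -0.61; open squares leave out Gbp6 and open triangles Ifi47.

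Across the 6 arrays the member probe sets did not all run together. Pairwise Pearson correlations of their log2 levels had a median of 0.60 over 55 pairs and a lowest value of -0.91, as a description of arrays that share groups and normalization. The mean centred profile of the 8 genes was 0.31 and 0.27 in treated hearts, -0.11 and -0.16 in untreated apoE-deficient hearts, and -0.06 and -0.26 in B6 hearts. Of 13080 other tested genes, the 8 whose levels followed that profile most closely over the 6 arrays were Clvs1 (r = 0.996), Mtmr9 (0.996), Dct (0.995), Psma3 (0.990), Klhl5 (0.990), 1700037H04Rik (0.989), Upp1 (0.988) and Taf9b (0.988). These values were picked as the highest of 13080 over only 6 arrays. They carry no test and do not show shared control with the GTPases.

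The other genes of the pathway were read from lists. Of the ligands, Ifng (interferon gamma itself), Ifnb1, Ifna2, Ifna4 and Il12b lay below the filter, and Ifng had log2 levels of 4.61 and 3.94 in treated hearts, 3.65 and 5.22 in untreated apoE-deficient hearts and 4.98 and 3.83 in B6 hearts, and the groups overlapped. The 3 ligand genes tested, Il12a, Il15 and Il18, did not pass in any comparison. Of 6 receptor genes, Ifngr2, the signalling chain of the interferon gamma receptor, read 10.34 and 10.42 in treated hearts and 10.91 and 10.98 in untreated apoE-deficient hearts, and fell by 0.56 on the log2 scale (SE 0.06, adjusted p = 1.96e-04). Its value turned to 0.60 with no scaling. Ifngr1, the ligand-binding chain, differed by 0.04 ± 0.09 in that comparison and was higher in untreated apoE-deficient than in B6 hearts by 0.35 ± 0.09 (adjusted p = 0.0477), a call lost with trimmed-mean scaling, centred medians and no scaling.

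Downstream of the receptors, Jak1, the kinase bound to all interferon receptors, was lower in treated than in untreated apoE-deficient hearts (-0.33 ± 0.06, adjusted p = 0.00348) and higher in untreated apoE-deficient than in B6 hearts (0.24 ± 0.06, adjusted p = 0.0405). Both values changed sign with no scaling (0.81 and -0.05) and lost their call with array medians centred. Of 5 tested kinases and STAT genes no other passed in any comparison. Irf1, which carries the interferon gamma signal to many GTPase promoters, differed by 0.05 ± 0.09 (adjusted p = 0.774) in treated against untreated apoE-deficient hearts and did not pass in the other comparisons. Irf7, the amplifier of the type I interferon response, rose by 0.45 ± 0.14 in treated against untreated apoE-deficient hearts (adjusted p = 0.0491), and Irf9, a factor of the type I interferon response, was higher in untreated apoE-deficient than in B6 hearts by 0.72 ± 0.17 (adjusted p = 0.0360), a call lost with array medians centred (0.53) and with no scaling (0.34). Usp18, an interferon-induced inhibitor of the type I receptor, rose by 0.73 ± 0.14 in treated against untreated apoE-deficient hearts (adjusted p = 0.00575), while Socs1 lay below the filter. Pias1, an inhibitor of interferon signalling, was lower in untreated apoE-deficient than in B6 hearts (-0.43 ± 0.10, adjusted p = 0.0330), a call lost with scaling to hybridization controls.

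Of 21 tested interferon gamma targets, 11 rose in treated against untreated apoE-deficient hearts, 1 fell and 9 did not pass, with a median of 0.24, beside 10.0% higher and 9.81% lower among all tested probe sets. The same background stands beside the counts of other lists in this comparison, and that given above for each of the other comparisons beside theirs. Cxcl9, a T cell chemokine, read 7.82 and 8.03 in treated hearts against 6.73 and 6.67 in untreated apoE-deficient hearts and rose by 1.22 ± 0.15 (adjusted p = 6.05e-04). Ubd, a ubiquitin-like modifier, rose by 2.65 ± 0.39 (adjusted p = 0.00166), Serping1, the C1 inhibitor of complement, by 0.53 ± 0.04 and Tapbp, a peptide-loading chaperone, by 0.41 ± 0.06. Ubd read 7.75 and 7.81 in treated, 5.32 and 4.94 in untreated apoE-deficient and 3.81 and 4.96 in B6 hearts. With the filter at log2 4.99, Ubd was tested because of its level in treated hearts, which limits its place among the 11. The member that fell was the proteasome activator Psme1 (-0.22 ± 0.05, adjusted p = 0.0211), whose value turned to 0.84 with no scaling. With trimmed-mean scaling H2-K1, 1 of the 11, turned to -0.05, and Cd74, H2-Aa and H2-D1 lost their calls. The H2-K1, H2-D1 and H2-Aa probe sets are of the kind whose probes can bind other transcripts. Of 18 tested type I interferon antiviral genes, 5 rose, 0 fell and 13 did not pass (median 0.28), with Ifit3 at 0.55 ± 0.10 and Oasl2 at 0.58 ± 0.12.

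In untreated apoE-deficient against B6 hearts, 3 of the 21 interferon gamma targets were higher and 1, the class II gene H2-Eb1 (-0.35 ± 0.07, adjusted p = 0.0237), was lower, a call lost with scaling to hybridization controls (-0.24). The 3 were the class I genes H2-D1 (0.27) and H2-K1 (0.18), both read from probe sets whose probes can bind other transcripts, and the immunoproteasome subunit Psmb10 (0.36). All 3 calls were lost with no scaling, where H2-K1 turned to -0.06, and those of H2-K1 and Psmb10 also with array medians centred. Of the antiviral genes 3 of 18 were higher and 0 lower, namely Oas2 (1.05 ± 0.21), Ifit1 (0.84 ± 0.14) and Ifit3 (0.59 ± 0.10). All 3 calls were lost with no scaling (0.68, 0.45 and 0.21), and that of Ifit3 also with array medians centred (0.40). In treated apoE-deficient against B6 hearts 9 of 21 interferon gamma targets and 10 of 18 antiviral genes were higher and 1 of each lower. The lower ones were Psme1 (-0.26) and Rsad2 (-0.25), of which Rsad2 turned to 0.08 with scaling to hybridization controls, and both turned with no scaling (0.54 and 0.65). Both calls were also lost with array medians centred (-0.17 and -0.06), and that of Psme1 with scaling to hybridization controls (-0.03).

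A list of further genes related to these GTPases gave little. Of 8 with a probe set of their own, Gbp2b, Gbp8, Mx1, Mx2 and Irgc1 lay below the filter. Gbp7 (0.33 ± 0.13, adjusted p = 0.104 in treated against untreated apoE-deficient hearts), Irgq and Gm12185 did not pass in any comparison. Whether each gene of this list answers to interferon was not tested. Of 12 autophagy genes, among them the LC3 conjugation genes whose proteins help place IRG and Gbp proteins on target membranes, 2 rose and 4 fell in treated against untreated apoE-deficient hearts and 6 did not pass. Becn1, which acts in the start of degradative autophagy, rose by 0.49 ± 0.07 and Map1lc3a by 0.53 ± 0.06, the second turning to -0.05 with trimmed-mean scaling. The Map1lc3a probe set is of the kind whose probes can bind other transcripts. Gabarap (-0.37 ± 0.06), Gabarapl1 (-0.30 ± 0.05), Gabarapl2 (-0.36 ± 0.06) and Atg7 (-0.55 ± 0.14) fell, and with no scaling their signs turned. With array medians centred Gabarapl1 (-0.06), Gabarapl2 (-0.11) and Atg7 (-0.17) lost their calls, Atg7 also with scaling to hybridization controls.

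**Figure D5:**
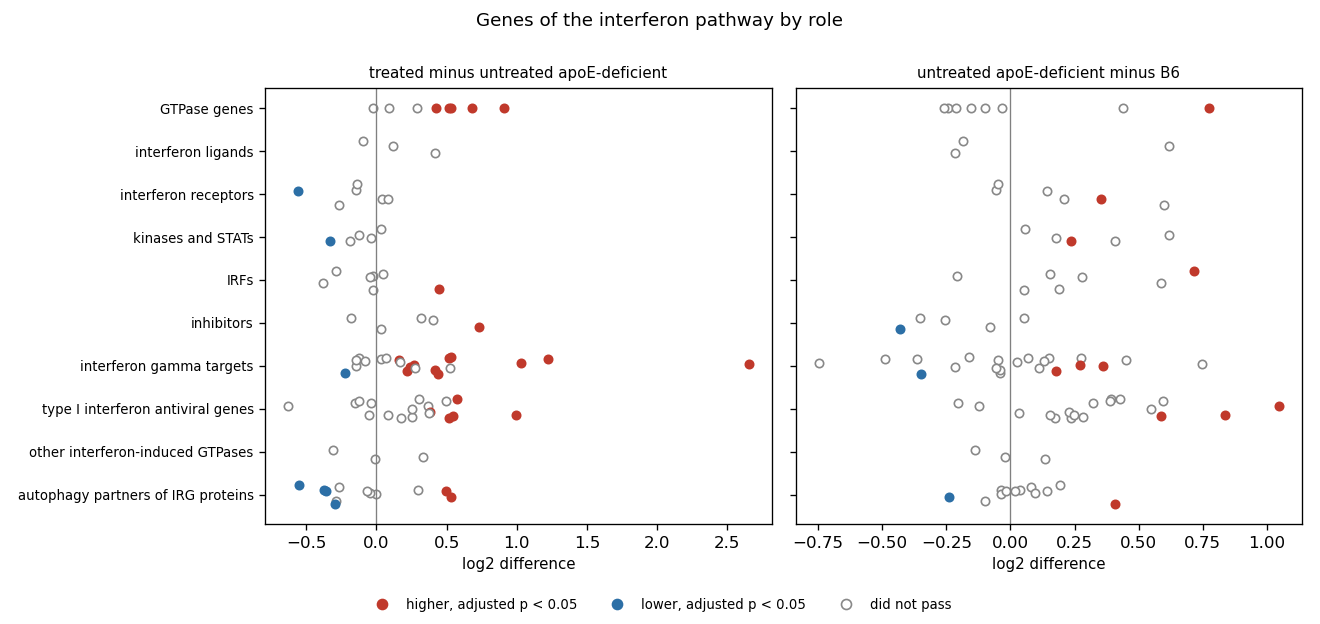
Log2 differences (x axis) of the GTPase genes and of tested genes of the interferon pathway, by role (rows), in treated against untreated apoE-deficient hearts (left) and untreated apoE-deficient against B6 hearts (right); each point is a gene at its brightest probe set, red passed as higher, blue as lower. Interferon gamma targets reach 2.65 (Ubd, which passed the filter on dim probe sets through its treated arrays) on the left, where receptors reach -0.56 (Ifngr2).

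Markers of other cell types moved beside the GTPases. In treated against untreated apoE-deficient hearts 5 of 8 endothelial markers rose and 1 fell, and their summed normalized signal was 6564 and 6767 in treated, 4945 and 4811 in untreated apoE-deficient and 5429 and 5567 in B6 hearts. B cell markers rose in 2 of 6, Ighm (3.52 ± 0.23) and Cd79b (1.49 ± 0.45), with sums of 1430 and 1746 in treated, 325 and 295 in untreated apoE-deficient and 278 and 225 in B6 hearts. Ighm alone gave 1172 and 1456 of those sums in treated and 128 and 83.3 in untreated apoE-deficient hearts, and Pax5 differed by -0.93 ± 0.33 without passing (adjusted p = 0.0872). Cd79b had mean log2 levels of 6.18 in treated, 4.69 in untreated apoE-deficient and 5.02 in B6 hearts. With the filter at log2 4.99, it was tested because of its level in treated hearts. Airway markers rose in 4 of 6 tested, with sums of 14720 and 15540 in treated hearts, 135 and 149 in untreated apoE-deficient hearts and 118 and 137 in B6 hearts. With sums this low outside treated hearts, airway markers could pass the filter through their level in treated hearts, which limits that count. White adipocyte markers rose in 3 of 4 tested, brown adipocyte markers in 3 of 4 and fibroblast markers in 5 of 7. The brown adipocyte marker Ucp1 also passed the filter through treated hearts, with mean log2 levels of 12.61 in treated, 3.91 in untreated apoE-deficient and 4.98 in B6 hearts. The part of these cell types in the GTPase values was not tested.

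Macrophage markers were higher in untreated apoE-deficient than in B6 hearts in 6 of 11 and lower in 1, and their sums were 13950 and 13890 in treated, 13820 and 13970 in untreated apoE-deficient and 10330 and 10510 in B6 hearts. Gbp6 was also higher in untreated apoE-deficient than in B6 hearts, and the part of macrophages in it was not tested. T cell and natural killer cell markers were dim: Cd3e, Cd3d, Cd247, Cd4, Cd8b1 and Cd2 of 9 T cell markers and Ncr1, Klrk1, Klrd1, Nkg7 and Eomes of 8 natural killer and cytotoxic cell markers lay below the filter. Of the 3 T cell markers tested in treated against untreated apoE-deficient hearts, Cd8a was called lower (-1.16 ± 0.20, adjusted p = 0.00413), while Cd3g (0.77 ± 0.56) and Zap70 (0.44 ± 0.20) did not pass, and the median was 0.44. The Cd8a probe set is of the kind whose probes can bind other transcripts, and its deposited, unscaled signals had a ratio of 1.03. Of the 3 cytotoxic markers 0 passed. Of the 4 tested dendritic cell markers and the 1 tested thymus marker 0 passed (limma).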

How the data were processed

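Biotinylated cRNA from heart RNA was hybridised to Affymetrix chips, per the labels. The values deposited by the authors are linear intensities, 1 for each probe set on each chip. GCOS appears in the submitters' processing notes. Its version, background correction and scaling: not given in the sources used here.

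Of 45101 probe sets, 64 controls were left out. Signals were quantile-normalized, a pseudocount of 11.1 (their 25th percentile) was added and log2 was taken. Probe sets with a mean above the 40th percentile (log2 4.99), 27022 in all, went into limma (version 3.58.1, under R 4.3.3; lmFit, then eBayes with an intensity trend), with all 6 arrays in 1 fit of 3 groups and Benjamini-Hochberg adjustment. The array annotation, which can be old, gave 1 symbol for 34945 probe sets, several for 932 and none for 9160, and 34741 symbols were brought up to date by gene number from a GRCm38.p6 table. A gene in a list is its brightest probe set. Named were every member probe set, up to 4 genes of each list and comparison with the smallest p, genes of the ligand, receptor, kinase, IRF and inhibitor lists, and the 8 genes most like the members. Other genes named were chosen after their values were seen. Members and lists were chosen with earlier results of these data known. The test was tried on simulated data. Alternatives changed the scaling, pseudocount, filter, variance model, arrays in the fit and covariates.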

Additional observations from a re-analysis of the deposited data

How the results depend on the processing

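In treated against untreated apoE-deficient hearts, 5355 probe sets and 6 of the 11 GTPase probe sets were called (limma). With no scaling the counts were 22739 and 11, without the intensity trend 1653 and 1, and with array medians centred 7906 and 11. Leaving out 1 array gave 2944 to 4996 and 2 to 6 calls, lowest without treated replicate 1. In untreated apoE-deficient against B6 hearts, 1909 and 3 were called. Scaling to hybridization controls gave 3039, and the fit without the trend gave 10 and 0 (5 GTPase probe sets at an unadjusted p under 0.05). At that unadjusted threshold the share of all tested probe sets was not computed, here or with no scaling, so these counts have no background. No scaling gave 0 GTPase calls (4 at an unadjusted p under 0.05), and leaving out 1 array gave 614 to 1729 and 1 to 3, lowest without B6 replicate 2. In treated apoE-deficient against B6 hearts, 4066 and 6 were called. No scaling gave 18723 and 11, hybridization controls 7604 and 10, the fit without the trend 626 and 3, and leaving out 1 array 2192 to 4120 and 5 to 6, lowest without B6 replicate 2. Of the calls, 44.8% were higher in untreated apoE-deficient against B6 hearts and 49.6% in treated apoE-deficient against B6 hearts. These shares were 80.9% and 92.5% with hybridization controls, 15.3% and 74.9% with centred medians and 4.65% and 99.7% with no scaling.

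The replicate numbers share only a number: replicate 1 minus replicate 2 differences correlated at -0.0063, 0.033 and 0.020 between groups. The replicate block gave 5344, 1937 and 4103 calls, and 5, 3 and 7 GTPase calls, in the order of comparisons above. With it Gbp3 lost its call in treated against untreated apoE-deficient hearts (adjusted p = 0.0587) and the dimmer Iigp1 probe set passed in treated apoE-deficient against B6 hearts (adjusted p = 0.0319).

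Some signs turned. In treated against untreated apoE-deficient hearts the brighter Iigp1 probe set gave 1.18 with no scaling, 0.143 with hybridization controls, 0.279 with centred medians and -0.0856 to 0.0349 with 1 array left out, 0.0075 without untreated apoE-deficient replicate 1 among them. The dimmer one gave -0.0577 to 0.317 with 1 array left out. In untreated apoE-deficient against B6 hearts the dimmer Iigp1 probe set gave -0.137 with no scaling, Irgm2 0.0301 with hybridization controls and -0.138 to 0.0743 with 1 array left out, and Gbp3 -0.385 to 0.184 with 1 array left out. In treated apoE-deficient against B6 hearts the brighter Iigp1 probe set gave 0.60 with no scaling and 0.0343 with hybridization controls, and Igtp 0.84, 0.28 and 0.133 with no scaling, hybridization controls and centred medians. The within-array family step without Gbp6 was 0.44, -0.0068 and 0.44 in the order of comparisons above, and without Ifi47 it was 0.81 in treated apoE-deficient against B6 hearts. That step and its alternatives were chosen after seeing the data. The causes of these moves were not tested.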
